A study of Mus musculus with 180 samples.

Results

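Cxcl1, Cxcl2 and Cxcl3 are the CXC chemokines with which activated mouse macrophages call neutrophils. They were taken by symbol from a table of normalized exonic read values, where they make up 3 of 45070 genes, and each symbol occurred once. The values came from bone marrow-derived macrophages (BMDM) of wild type mice, which the study's methods describe as male C57/BL6 animals aged 6 to 8 weeks. They received DMSO, the vehicle, or 1 of 58 clinical kinase inhibitors (CKIs) for 1 h, and LPS at 10 ng/ml was then added for 2 h. There were 3 samples for each CKI and 6 for DMSO, the latter labelled as 2 sets of 3. Each CKI was used at its own concentration, which the study set from the affinity for the intended target, so that CKIs were not compared at matched doses. All 180 samples were stimulated with LPS, so the values are levels after stimulation and not induction by it.

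The products of these genes carry the ELR motif ahead of the paired cysteines and bind the receptor CXCR2, through which they draw neutrophils to sites of infection. In macrophages LPS engages TLR4, and the adaptor MyD88 passes the signal on through IRAK kinases, TRAF6 and TAK1 to the IKK complex and to the p38, JNK and ERK kinases. IKK frees NF-kB to enter the nucleus, where it acts at the promoters of early response genes. The resulting chemokine mRNAs are short-lived because AU-rich elements in their 3′UTRs are bound by decay factors such as Zfp36 (tristetraprolin), and p38 signalling opposes that decay.

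In the mm10 annotation of the deposited table the genes lie on the plus strand of chromosome 5. Cxcl3 (Entrez Gene 330122) spans chr5:90786101-90788093, Cxcl1 (14825) spans chr5:90891245-90893121, and Cxcl2 (20310) spans chr5:90903899-90905938. Cxcl5, Ppbp and Pf4 lie before Cxcl3, Cxcl15 lies between Cxcl3 and Cxcl1, and 10777 bases separate Cxcl1 from Cxcl2. The 150 bases before each annotated start site are shown because a common layout is visible in them. The sequences are RefSeq's, of build GRCm38.p6, written 5′ to 3′ on the plus strand. The capitals mark the only runs of 8 or more bases that all 3 windows share before the start site. These are GGGAATTTCCC, which holds a form of the NF-kB binding site, and ATAAAAGG, a TATA-like box.
Cxcl1 (chr5:90891095-90891244): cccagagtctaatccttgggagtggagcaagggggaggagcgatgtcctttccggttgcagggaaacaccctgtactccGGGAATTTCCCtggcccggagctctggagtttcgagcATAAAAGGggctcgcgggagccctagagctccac
Cxcl2 (chr5:90903749-90903898): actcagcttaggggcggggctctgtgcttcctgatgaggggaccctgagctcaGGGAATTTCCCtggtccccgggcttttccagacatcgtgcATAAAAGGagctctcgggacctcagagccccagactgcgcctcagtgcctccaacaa
Cxcl3 (chr5:90785951-90786100): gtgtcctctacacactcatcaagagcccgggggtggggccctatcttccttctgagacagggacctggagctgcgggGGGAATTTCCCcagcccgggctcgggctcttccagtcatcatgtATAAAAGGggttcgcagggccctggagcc

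The NF-kB letters lay 71 to 61 bases before the start of Cxcl1, 97 to 87 before that of Cxcl2 and 73 to 63 before that of Cxcl3. The TATA-like letters followed 34 to 27, 57 to 50 and 29 to 22 bases before the start, in the same order. Both strands were searched in the 32851 RefSeq windows of 300 bases, from 250 before to 50 after a start site. GGGAATTTCCC occurred in 14 windows (0.0426%) and ATAAAAGG in 577 (1.76%). The only windows with both on the gene's own strand were those of Cxcl1, Cxcl2 and Cxcl3, which are 3 of 32851 (0.00913%). The letters were taken from these 3 windows, so the shares are a description and test nothing. The windows of Cxcl5, Pf4 and Cxcl15, which lie in the same cluster, held neither sequence nor the letters of an AP-1 site (TGANTCA), a CRE (TGACGTCA) or a GC box (GGGCGG). The window of Ppbp held an AP-1 site and the TATA-like letters on the opposite strand. Of all windows 7.81%, 1.79% and 35.7% held the AP-1, CRE and GC box letters, which do not overlap the shared runs, and among the members only Cxcl2 held any of them, a GC box 139 to 134 bases before the start. Other forms of the NF-kB site were not searched in any window. A match of letters is not evidence of binding in these cells.

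**Figure D1:**
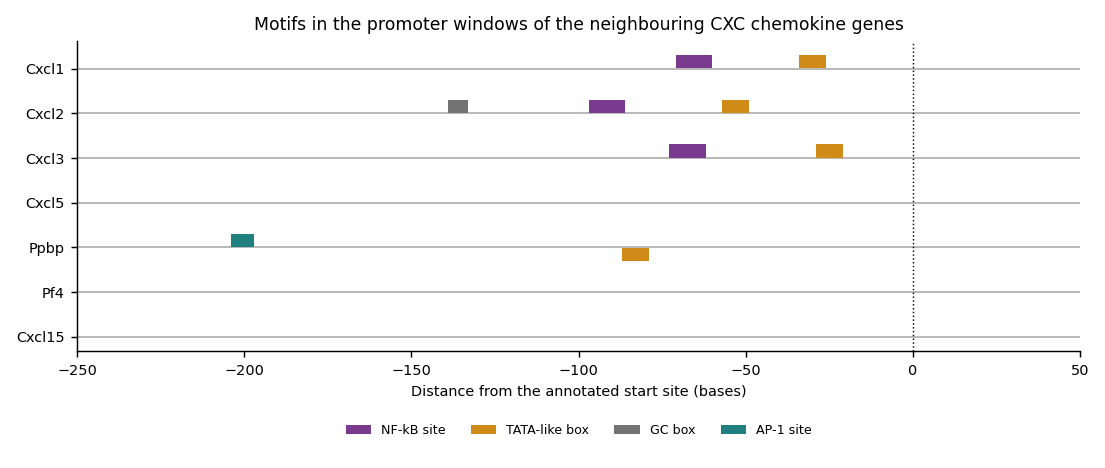
Matches to NF-kB, TATA-like, AP-1 and GC box letters in the promoter windows of 7 neighbouring CXC chemokine genes, plotted by distance from the annotated start site in bases, with matches on the gene's strand above the line and those on the opposite strand below it. Cxcl1, Cxcl2 and Cxcl3 each have the NF-kB letters GGGAATTTCCC followed by the TATA-like letters ATAAAAGG. Both runs were taken from the windows of Cxcl1, Cxcl2 and Cxcl3, so their presence there was given. The other 4 windows lack this arrangement of exact letters, and other forms of the NF-kB site were not searched.

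The 3′UTRs also shared a feature, which differed in degree. The AU-rich pentamer ATTTA, which overlapping matches included, occurred 7 times in the 592 bases of the Cxcl1 3′UTR, 11 times in the 734 bases of Cxcl2 and 5 times in the 645 bases of Cxcl3. Among 15996 genes with a 3′UTR of at least 200 bases, 0.306% were at least as dense in ATTTA as Cxcl1, 0.113% as Cxcl2 and 1.67% as Cxcl3. The longer form TATTTAT occurred 6, 7 and 2 times. The richest stretches of 30 bases are shown, with the pentamers in capitals, because Cxcl3 has 2 of them where Cxcl1 has 4 and Cxcl2 has 5.
Cxcl1 (3′UTR bases 79 to 108): gagggtcctATTTATTTAtgtATTTATTTA
Cxcl2 (3′UTR bases 123 to 152): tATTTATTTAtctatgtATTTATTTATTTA
Cxcl3 (3′UTR bases 181 to 210): caagatggcatcttATTTAatgtttATTTA
The transcripts of Cxcl2 and Cxcl3 share an identical run of 110 bases, and 60 of the 1059 windows of 51 bases in Cxcl2, the read length in the study's methods, also occur in Cxcl3. The read length is uncertain, since those methods name a NovaSeq with paired-end reads for these libraries and the labels a NextSeq500. Reads from this run could have been counted for either gene, since 1 alignment was kept for each read, so small differences between Cxcl2 and Cxcl3 are uncertain. Cxcl1 shares no run longer than 23 bases with either.

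With DMSO all members were clearly expressed, and Cxcl1 and Cxcl2 varied less between samples than Cxcl3. Normalized values are read counts on exons that the authors scaled with genes of little variation between samples and rounded. Cxcl1 was at 651, 622 and 746 in the first DMSO set and at 640, 630 and 786 in the second. Cxcl2 was at 1496, 1705 and 1763 in the first set and at 1328, 1842 and 1808 in the second. Cxcl3 was at 405, 544 and 589 in the first set and at 313, 558 and 607 in the second. The sets overlapped for every member, and Cxcl3 was the most spread of the genes, with its lowest DMSO samples being the replicate 1 sample of each set. This step was not confined to DMSO. Over the 60 samples of each number the median of Cxcl3 was 423 in replicate 1, 519.5 in replicate 2 and 578 in replicate 3. The main fit has no term for the replicate number, so its spread for Cxcl3 includes that step. Per kilobase of cDNA, the mean level with DMSO was highest for Cxcl2 (1530.0 ± 187 SD, n = 6), followed by Cxcl1 (711 ± 72.4) and Cxcl3 (494 ± 115). In each of the 6 samples the order of the levels per kilobase was Cxcl2, Cxcl1 and Cxcl3.

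The samples were macrophages by their markers. All 9 macrophage markers checked (such as Adgre1, Csf1r and Lyz2) passed the filter on low values, while 0 of 7 lymphocyte markers did. That filter kept 12714 genes with a mean of at least 10. Of the fibroblast and stromal markers 2 of 6 passed, of endothelial 2 of 4, of dendritic cell 1 of 4 and of mast cell and basophil 1 of 4. With DMSO the macrophage markers summed to 87028 to 201540, and the endothelial markers, the highest of those 4 lists, to 80 to 469. The normalized values of a sample summed to between 9477340 and 12273349. Neutrophil markers were present at a low level. Of 11 in the list 9 passed the filter, and their summed level ranged from 504 to 1466 with DMSO and from 447 to 2963 with CKIs, while the defining marker Ly6g was at 0 in 111 of the 180 samples. Mitochondrial transcripts took 0.759 to 1.94% of the normalized values with DMSO and 0.525 to 4.47% with CKIs. In bulk samples such as these, fewer cells of a type and less RNA per cell cannot be told apart.

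Over the 180 samples Cxcl1 ranged from 385 to 2383 (median 860.5), Cxcl2 from 462 to 5870 (median 1683.5) and Cxcl3 from 145 to 1248 (median 500.0). When the 59 conditions were ordered by mean log2 level, DMSO was in place 52 from the top for Cxcl1 but in place 32 for Cxcl2 and for Cxcl3. Cxcl1 was thus higher than with DMSO in the mean of 51 of 58 CKIs, with a median log2 fold change of 0.29, while the medians were 0.02 for Cxcl2 and 0.05 for Cxcl3. The median gene was itself above DMSO with 54 CKIs, by a median of 0.08, and relative to it Cxcl1 was higher with 49, Cxcl2 with 26 and Cxcl3 with 28. The orders were otherwise nearly continuous. Of the 58 steps between neighbouring conditions 1 was larger than the pooled SD of its pair for Cxcl1, 4 for Cxcl2 and 1 for Cxcl3. For Cxcl1 that step set PF04691502 above Apitolisib, and for Cxcl3 it set Pimasertib, the lowest, below Volasertib. For Cxcl2 the steps set Omipalisib above BGT226, BGT226 above Momelotinib, TG100115 above SNS314 and Selumetinib above PH797804. All other neighbours, such as Omipalisib and Tofacitinib at the top for Cxcl1, did not differ beyond their spread.

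The 6 DMSO samples were the reference for each CKI in a limma fit of log2(normalized value + 1), which understates changes of low genes, with p-values adjusted over 12714 genes (Benjamini-Hochberg, threshold 0.05). Cxcl1 rose with 14 CKIs and fell with 0. Cxcl2 rose with 6 and fell with 2, and Cxcl3 rose with 6 and fell with 4. Adjusted over the 58 CKIs of each gene instead, an alternative added after the data were seen, the counts were 23 and 0 for Cxcl1, 9 and 4 for Cxcl2 and 9 and 8 for Cxcl3. Over all genes and CKIs, 2.52% of comparisons were called higher and 1.65% lower. For Cxcl1 that made 14 of 58 CKIs, and 0.0315% of the genes tested were called higher with at least as many CKIs. For Cxcl2 and Cxcl3 6.93% of genes reached 6 CKIs in that direction, and 20.8% and 8.27% of genes were called lower with as many CKIs as Cxcl2 and Cxcl3. At an unadjusted p under 0.05, Cxcl1 was likewise lower with 0 CKIs. All comparisons share the DMSO samples, so that counts for a gene are not independent of each other. By the plain overlap of values, all 3 samples lay above the 6 DMSO samples for Cxcl1 with 25 CKIs, for Cxcl2 with 9 and for Cxcl3 with 8, against 4.52% of all comparisons. They lay below them with 0, 4 and 1 CKIs, against 2.02% of all comparisons.

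Of the 58 CKIs 19 had a call for at least 1 member. All 3 genes rose with 4 of them, which were the PI3K/mTOR inhibitor Omipalisib and the JAK inhibitors (JAKi) Filgotinib, Momelotinib and Tofacitinib. Cxcl1 alone rose with 7 CKIs. With IMD0354, BMS911543 and PF04691502 among these, other members also rose when the replicate number was a term of the fit. The only CKI with calls in opposite directions was the ERBB inhibitor Afatinib. The genes that fell together were Cxcl2 and Cxcl3, with the MEK inhibitor Pimasertib.

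**Figure D2:**
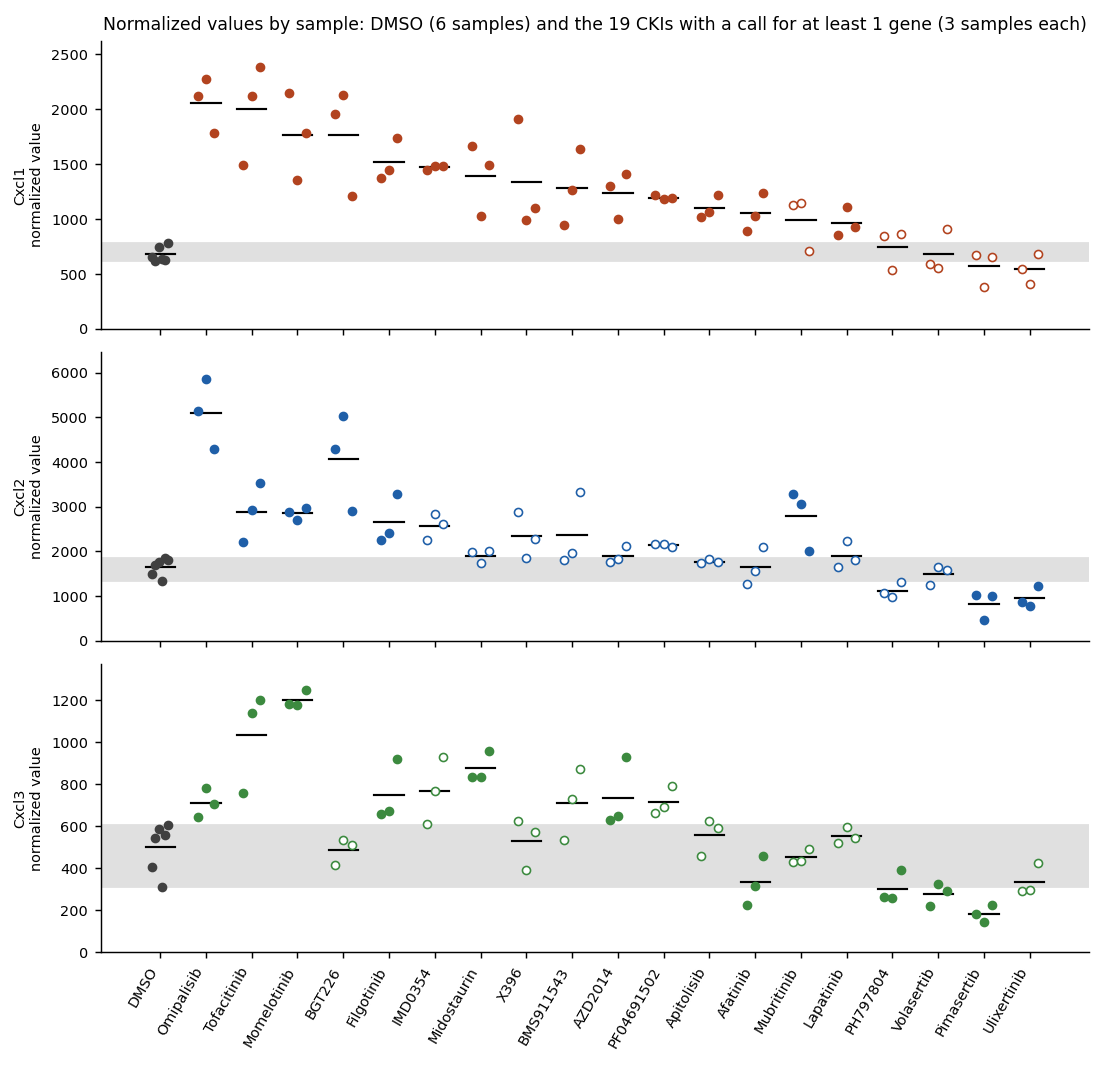
Normalized values (linear axes from 0) of Cxcl1, Cxcl2 and Cxcl3 in each sample, for DMSO and the 19 CKIs with a call. Dots are samples, filled for DMSO and where the gene was called, bars are means and the grey band spans the 6 DMSO samples. Cxcl2 reaches 5870 with Omipalisib, and Cxcl3 stays inside the DMSO band with BGT226, where Cxcl1 and Cxcl2 are above it.

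The dual PI3K/mTOR inhibitors Omipalisib and BGT226 had the largest fold changes of Cxcl2, and for Cxcl1 Omipalisib was first of the 58 CKIs, followed by the JAKi Tofacitinib and Momelotinib and then BGT226. Omipalisib brought Cxcl1 to 2117, 2277 and 1778, a log2 fold change of 1.60 (SE 0.19, adjusted p = 1.37e-11). It brought Cxcl2 to 5154, 5870 and 4297, a log2 fold change of 1.62 (SE 0.17, adjusted p = 2.21e-14), and these samples were more than 2-fold above every DMSO sample. Cxcl3 was at 643, 782 and 707 with Omipalisib, above the DMSO samples but by less (log2 fold change 0.53, SE 0.20, adjusted p = 0.042). With BGT226 Cxcl1 was at 1958, 2132 and 1206 (log2 fold change 1.34, SE 0.19, adjusted p = 4.64e-09). Cxcl2 was at 4289, 5042 and 2899 (1.27, SE 0.17, adjusted p = 4.22e-10). Cxcl3 was at 417, 536 and 512, all within the range of the DMSO samples, with a log2 fold change of -0.01 (SE 0.20, adjusted p = 0.97). These CKIs called many genes, 17.5% of those tested higher with Omipalisib and 24.1% with BGT226, against 3 and 2 of the 3 chemokines.

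The ratio of the chemokines within a sample, which does not depend on the scaling between samples, moved in the same comparison. On the log2 scale Cxcl1 over Cxcl3 was between 1.23 and 2.23 with BGT226 and between 0.17 and 1.03 with DMSO, a difference of 1.35. Cxcl2 over Cxcl3 differed by 1.28 with BGT226 and by 1.09 with Omipalisib, without overlap with DMSO, while Cxcl1 over Cxcl2 overlapped it with both. Each of these differences in the Cxcl3 ratios had an exact two-sided permutation p of 0.0238, the smallest that 84 splits of 3 and 6 samples can give. With adjustment over 174 ratios the p was 0.0942, so none of the 174 ratios passed. At an unadjusted exact permutation p under 0.05 there were 55.

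Other PI3K/mTOR inhibitors raised Cxcl1 less. AZD2014 brought Cxcl1 to 1301, 1002 and 1409, PF04691502 to 1216, 1180 and 1191, and Apitolisib to 1014, 1068 and 1218. Their log2 fold changes were 0.86, 0.82 and 0.70 (SE 0.19 each), and all of these samples lay above the DMSO samples. The call with Apitolisib, where mitochondrial transcripts took 1.49 to 4.04%, was lost with the replicate number and that share as terms of the fit (log2 fold change 0.56, adjusted p = 0.195). The CKIs called 6.06%, 8.86% and 12.7% of all genes higher. Cxcl3 also rose with AZD2014, to 630, 649 and 931 (log2 fold change 0.57, SE 0.20, adjusted p = 0.0367), while Cxcl2 at 1766, 1820 and 2115 did not pass the test (0.20, SE 0.17). AZD8186 and TG100115, inhibitors of PI3K forms, had log2 fold changes of Cxcl1 of -0.09 and 0.16, and neither passed. In all, 5 of the 7 CKIs in this class had a call for Cxcl1, 2 for Cxcl2 and 2 for Cxcl3. The AKT inhibitors MK2206 and GSK2110183, which act downstream of PI3K, had Cxcl1 log2 fold changes of 0.23 and 0.17 and no call for any member.

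All 3 genes rose with 3 of the 6 JAKi. JAK kinases carry the signals of cytokine receptors, among them the type I interferon receptor, to STAT transcription factors. With Tofacitinib Cxcl1 was at 1490, 2119 and 2383, Cxcl2 at 2210, 2930 and 3527 and Cxcl3 at 758, 1138 and 1203. The log2 fold changes were 1.53, 0.79 and 1.05, and every sample lay above the DMSO samples. With Momelotinib Cxcl1 was at 2142, 1356 and 1782, Cxcl2 at 2878, 2704 and 2973 and Cxcl3 at 1182, 1178 and 1248. The log2 fold changes were 1.35, 0.79 and 1.29, and Cxcl3 had its highest mean of all conditions here. Filgotinib brought Cxcl1 to 1372, 1445 and 1739, Cxcl2 to 2258, 2418 and 3282 and Cxcl3 to 658, 672 and 920, with log2 fold changes of 1.16, 0.67 and 0.60. BMS911543 passed only for Cxcl1, at 950, 1265 and 1640 (0.89, SE 0.19). With the replicate number as a term of the fit Cxcl2 and Cxcl3 passed too. Momelotinib called few genes otherwise, 0.378% of those tested being higher against 3 of 3 chemokines, while the shares were 9.02% with Tofacitinib, 6.1% with Filgotinib and 0.472% with BMS911543.

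Ruxolitinib and Pacritinib had no call for any member. Their Cxcl1 samples, at 809, 1353 and 970 and at 925, 1081 and 864, all lay above the DMSO samples, with log2 fold changes of 0.59 and 0.49 (adjusted p = 0.96 and 0.18). The fold change of Ruxolitinib was larger than that of Lapatinib (0.50), which passed, since the adjustment runs over all genes of a CKI and so differs between CKIs. With Ruxolitinib limma called 0 genes, while 590 had an unadjusted p under 0.05. In the mean all 6 JAKi were above DMSO for all 3 genes. Of all 58 CKIs 51 were above it for Cxcl1, 31 for Cxcl2 and 31 for Cxcl3. Relative to Cxcl2, Cxcl3 was higher with Momelotinib and Tofacitinib, where the log2 ratio of Cxcl2 over Cxcl3 was 0.50 and 0.26 under that with DMSO, without overlap (exact permutation p = 0.0238, adjusted p = 0.0942). CKIs were classed here by their designated targets, which need not be the kinases that set the concentrations used, and the JAKi also differ in the other kinases they bind.

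**Figure D3:**
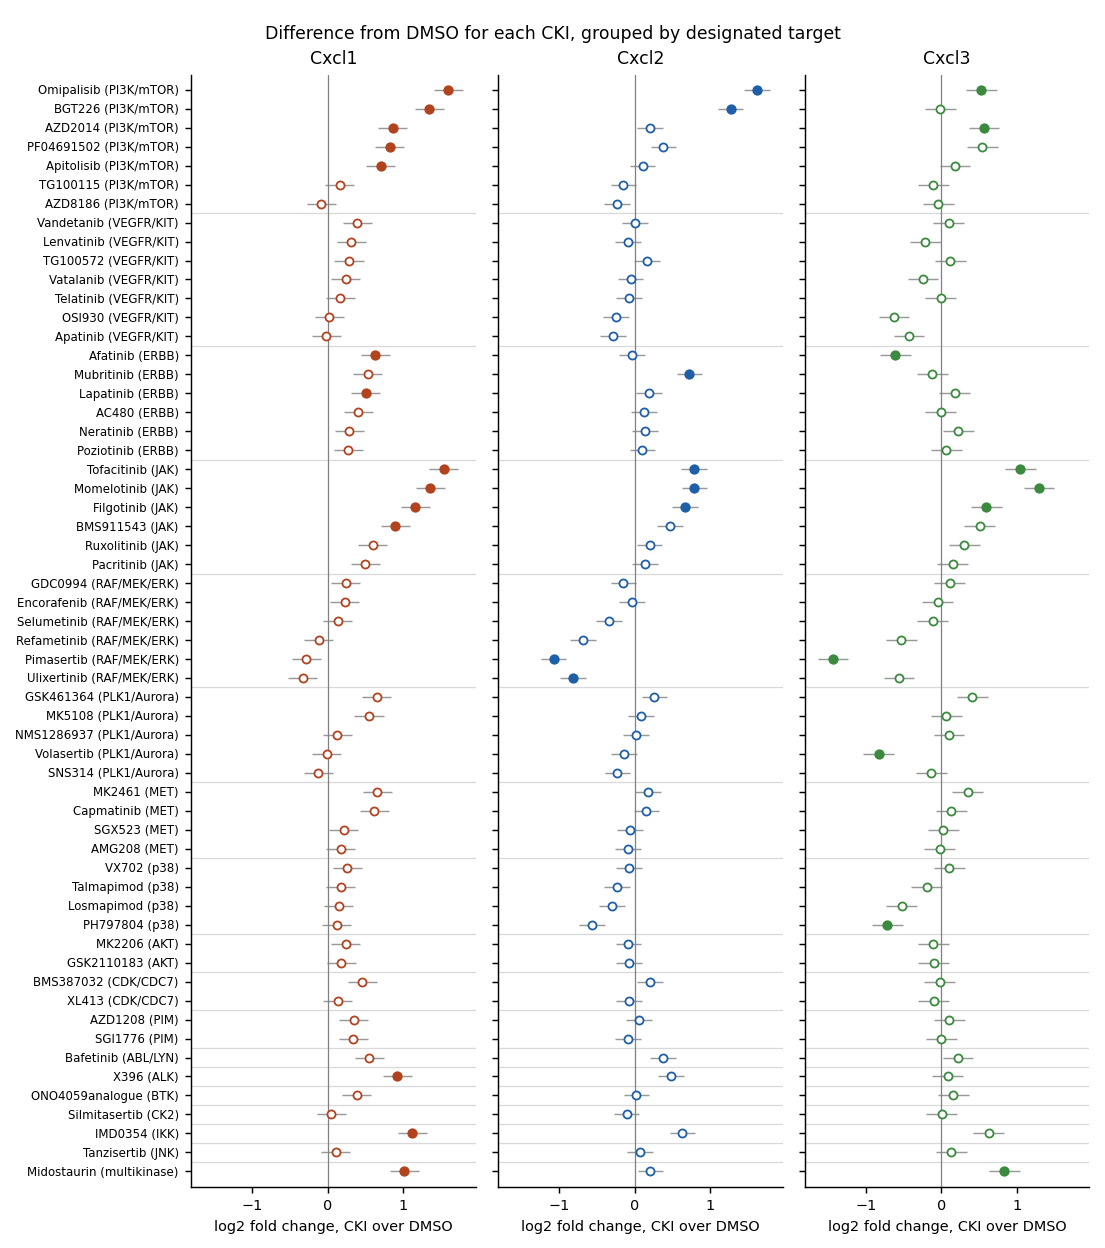
Log2 fold change over DMSO (x axis) of Cxcl1, Cxcl2 and Cxcl3 for each of 58 CKIs, grouped by designated target, with the standard error of the fit as a bar and filled dots for an adjusted p under 0.05. Cxcl1 is to the right of 0 for 51 CKIs, whereas RAF/MEK/ERK inhibitors lie left of 0 for Cxcl2.

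Single inhibitors of other kinases raised Cxcl1 as well. IMD0354, an IKK inhibitor, brought Cxcl1 to 1448, 1485 and 1479 (log2 fold change 1.12, SE 0.19, adjusted p = 6.14e-05), and 0.102% of the genes tested were higher with it. With IMD0354 Cxcl2 was at 2251, 2837 and 2605 and Cxcl3 at 612, 766 and 929, above all DMSO samples. Neither passed (adjusted p = 0.0617 and 0.21), but both did with the replicate number as a term of the fit. Midostaurin, a multikinase inhibitor, brought Cxcl1 to 1666, 1029 and 1488 (1.01) and Cxcl3 to 837, 834 and 959 (0.84), against 2.63% of genes called higher. Cxcl2 with Midostaurin was at 1981, 1736 and 2003 (0.21, SE 0.17), overlapping DMSO. The ALK inhibitor X396 brought Cxcl1 to 1913, 991 and 1096 (0.91), where 1 sample was far above the other two, and 0.204% of genes were higher.

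Of the 6 ERBB inhibitors Mubritinib, Lapatinib and Afatinib had calls, which differed in gene and direction, while AC480, Neratinib and Poziotinib had no call for any member. Mubritinib brought Cxcl2 to 3274, 3069 and 2009 (log2 fold change 0.73, SE 0.17, adjusted p = 0.00582), with 1.08% of genes called higher. Lapatinib brought Cxcl1 to 857, 1107 and 927 (0.50, SE 0.19, adjusted p = 0.0458), with 18.1% of genes called higher. With Lapatinib 5 of 9 neutrophil markers were also higher, their sum was at 1816 to 2174, above all DMSO samples (504 to 1466), and mitochondrial transcripts took 1.92 to 3.71%. The Cxcl1 call with Lapatinib did not hold with scaling by the median of ratios (adjusted p = 0.104) or with the replicate number and the mitochondrial share as terms of the fit (adjusted p = 0.287). Afatinib brought Cxcl1 to 895, 1030 and 1234 (0.63, SE 0.19, adjusted p = 0.0118) and Cxcl3 to 226, 318 and 459 (-0.61, SE 0.20, adjusted p = 0.0216). The Cxcl1 samples were above all DMSO samples, whereas those of Cxcl3 overlapped them, and the log2 ratio of Cxcl1 over Cxcl3 was 1.23 above that with DMSO without overlap (exact permutation p = 0.0238, adjusted p = 0.0942). With Afatinib 9.06% of all genes were called higher and 12.8% lower.

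The decreases fell on Cxcl2 and Cxcl3. Pimasertib, which inhibits MEK, brought Cxcl2 to 1029, 462 and 1003 (log2 fold change -1.07, SE 0.17, adjusted p = 1.7e-06). It brought Cxcl3 to 182, 145 and 223 (-1.43, SE 0.20, adjusted p = 1.17e-07), the lowest mean of any condition and below all DMSO samples. Cxcl1 at 673, 385 and 654 did not pass (-0.29, SE 0.19, adjusted p = 0.267), and 5.68% of all genes were called lower. Ulixertinib, an ERK inhibitor, brought Cxcl2 to 876, 769 and 1214 (-0.82, SE 0.17, adjusted p = 0.028). Only 2 genes (0.0157%) were called lower with Ulixertinib, and Cxcl2 was among them. Cxcl1 at 549, 412 and 682 and Cxcl3 at 291, 296 and 424 were low in the mean with Ulixertinib but overlapped DMSO and did not pass. Refametinib, a further MEK inhibitor, had Cxcl2 at 916, 1057 and 1108, below all DMSO samples. Its log2 fold change of -0.68 did not pass (adjusted p = 0.115), but did with the replicate number as a term of the fit. Selumetinib also inhibits MEK, and its Cxcl2 at 1087, 1414 and 1430 overlapped DMSO (-0.34, SE 0.17). For Cxcl2 all 6 RAF/MEK/ERK inhibitors were below DMSO in the mean, against 27 of all 58 CKIs. For Cxcl1 3 of 6 were, against 7 of 58.

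Cxcl3 fell with 3 further CKIs. Volasertib, a PLK1 inhibitor, brought Cxcl3 to 219, 326 and 291 (log2 fold change -0.83, SE 0.20, adjusted p = 0.0111), with 1.34% of genes called lower. PH797804, a p38 inhibitor, brought it to 263, 258 and 390 (-0.71, SE 0.20, adjusted p = 0.0383), with 1.25% of genes called lower, and Afatinib is described above. In these CKIs at least 1 Cxcl3 sample lay within the DMSO range, the lower end of which was 313, a replicate 1 sample. DMSO was at 313 and 405 in replicate 1, 544 and 558 in replicate 2 and 589 and 607 in replicate 3. Each Cxcl3 sample of these CKIs lay below the DMSO samples of its own number. With PH797804 Cxcl2 at 1077, 983 and 1308 lay below all DMSO samples without passing (-0.56, SE 0.17, adjusted p = 0.0561). It passed with the replicate number as a term of the fit. Cxcl1 was at 849, 539 and 860 (0.12) with PH797804. All 4 p38 inhibitors had a mean of Cxcl1 above and of Cxcl2 below DMSO, as did the 2 AKT inhibitors. Over all 58 CKIs Cxcl1 was above DMSO with 51 and Cxcl2 below it with 27. Talmapimod, Losmapimod and VX702 had no call for any member, although Cxcl3 passed with Losmapimod when the replicate number was a term of the fit. For Cxcl1 the lowest conditions were Ulixertinib (-0.33), Pimasertib (-0.29) and SNS314 (-0.13, at 642, 555 and 664), and none passed.

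Some of these values moved together with other measures of the samples. With Pimasertib 5 of 9 neutrophil markers and 2 of 9 macrophage markers were called higher, against 16% of all genes. The summed neutrophil markers were at 1677 to 2300, above all DMSO samples, and mitochondrial transcripts took 3.24 to 4.29%, also above. With Tofacitinib 1 of 9 neutrophil markers was called higher, near the 9.02% of all genes. Their sum was at 1051 to 2432 and mitochondrial transcripts took 1.35 to 4.01%, both overlapping the range with DMSO. The part of the neutrophil markers in the results was not tested. With the replicate number and the mitochondrial share as terms of the fit, the calls of both CKIs held, and Cxcl1 was 1.42 higher with Tofacitinib (log2 fold change, adjusted p = 6.69e-08). With Omipalisib, BGT226 and Momelotinib the sums lay at 468 to 873, 576 to 1155 and 729 to 1108, hence not above the DMSO range. Of the 9 markers 2, 2 and 0 were called lower and none higher. Among all genes 8.16% were called lower with Omipalisib, 6.32% with BGT226 and 52 genes with Momelotinib. Called higher were 17.5%, 24.1% and 0.378% in the same order.

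The share of calls that held in 9 fits with samples left out differed between the genes. In each of these fits 1 of the DMSO samples was left out, or the sample with 1 replicate number of every CKI. For Cxcl1 10 of 14 calls held in all 9 fits. X396 lost its call without its replicate 1 sample (log2 fold change 0.62, adjusted p = 0.464), Apitolisib without its replicate 3 sample or DMSO set 2 replicate 2 (adjusted p up to 0.116) and Afatinib without its replicate 2 or 3 sample (up to 0.0778). Lapatinib lost it in 7 of 9 fits (up to 0.185). For Cxcl2 5 of 8 calls held, Tofacitinib lost its call without replicate 2 (adjusted p = 0.0829) and Mubritinib without replicate 1 or 2 (up to 0.186). Ulixertinib lost its call in 6 of 9 fits, namely without its replicate 1 or 2 sample or without replicate 2 or 3 of either DMSO set (adjusted p from 0.0584 to 1.00). The number of CKIs with a fall of Cxcl2 was 1 instead of 2 in the fits without the replicate 1 or 2 samples of the CKIs or without replicate 2 or 3 of either DMSO set, and 4 without DMSO set 2 replicate 1.

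For Cxcl3 only the calls of Momelotinib and Pimasertib held in all 9 fits. A lost call did not always have a smaller fold change. With Filgotinib the log2 fold change without replicate 2 was 0.67 (SE 0.28), larger than with all samples. Without replicate 3 it was 0.44 (SE 0.23), which was smaller. Midostaurin lost its call without replicate 2 or 3 (adjusted p up to 0.0781), Volasertib without replicate 1 or 3 (up to 0.118) and Tofacitinib without replicate 2 (0.124). The other 5 calls were lost in 4 to 6 of the fits, with adjusted p-values from 0.0519 to 0.411. For Filgotinib, AZD2014 and Omipalisib the fits without replicate 1 of either DMSO set were among them, which are the samples where Cxcl3 was lowest. For Afatinib the losses came without its replicate 1 or 2 sample or DMSO set 2 replicate 2 or 3, and for PH797804 without the same CKI samples or replicate 2 or 3 of either DMSO set. Without the replicate 2 samples of all CKIs the number of CKIs with a rise of Cxcl3 was 1 instead of 6, and without their replicate 3 samples it was 2. Without replicate 1 of either DMSO set it was 3. The number with a fall of Cxcl3 was 1 instead of 4 without the replicate 1 samples of the CKIs, and 2 without their replicate 2 samples or without replicate 2 or 3 of DMSO set 2.

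The 3 chemokines varied together across conditions, and Cxcl1 and Cxcl2 most closely. Over the 59 condition means of log2 values Pearson's r was 0.889 for Cxcl1 and Cxcl2 (Spearman's rho 0.886), 0.758 for Cxcl1 and Cxcl3 (0.746) and 0.720 for Cxcl2 and Cxcl3 (0.792). Without the 2 conditions farthest from the median of the first gene of each pair, r was 0.868, 0.735 and 0.827. These are descriptions over conditions that share the scaling and sequencing of the table, and for Cxcl2 and Cxcl3 also the shared run of bases. The log2 fold change of Cxcl1 was larger than that of Cxcl2 in 56 of 58 CKIs and larger than that of Cxcl3 in 56. Between Cxcl2 and Cxcl3 neither was favoured, since Cxcl2 had the larger value in 27 CKIs and Cxcl3 in 31. The log2 ratio of Cxcl1 over Cxcl2 was above that of all DMSO samples with 30 CKIs and below it with 0, whereas over all other genes in place of Cxcl2 19.5% of comparisons were above and 0.809% below. The DMSO ratio (-1.28 ± 0.18 SD, n = 6) is shared by all of these comparisons. Cxcl1 over Cxcl3 was above DMSO with 6 of 58 CKIs, a smaller share than the 19.5% with all other genes in place of Cxcl3. Cxcl2 over Cxcl3 was above with 4 and below with 4, against 9.18% and 5.52% of comparisons when all other genes took the place of Cxcl3.

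**Figure D4:**
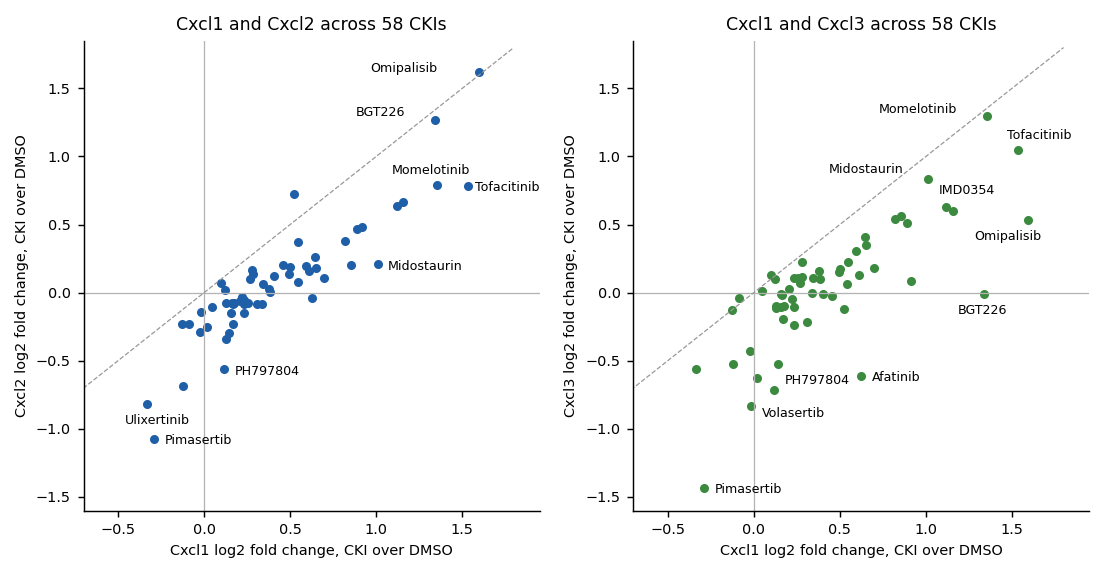
Log2 fold change over DMSO of Cxcl1 (x axis) against that of Cxcl2 (left) and Cxcl3 (right), 1 dot for each of 58 CKIs, with a dashed line where both are equal. Nearly all dots lie under the line, 56 of 58 in each panel, and BGT226 and Omipalisib lie near it for Cxcl2 but far below it for Cxcl3.

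Among all genes tested, those whose condition means were most like Cxcl1 were Cxcl2 (r = 0.889), Pip5k1a (0.801), Cxcl3 (0.758), Ppfia3 (0.756) and Zfp330 (0.708). For Cxcl2 they were Cxcl1, Pip5k1a (0.750), Cxcl3, Gm20784 (0.717) and Ppfia3 (0.712). The genes most like Cxcl3 were Cxcl1, Cxcl2, Pde4b (0.679), Flrt3 (0.657) and Ptger2 (0.652). Each member was therefore nearest to another member out of 12714 genes, by Pearson's r over 59 conditions. Pip5k1a encodes a kinase that makes the phosphoinositide PIP2, Pde4b a phosphodiesterase that breaks down cAMP and Ptger2 a receptor of prostaglandin E2 that raises cAMP.

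Among the other ligands of the cluster there was 1 call. Cxcl5 and Cxcl15, at means of 1.18 and 0.03, were below the filter, and Ppbp, at 14 ± 5.93 (SD, n = 6) with DMSO, was called with 0 CKIs. Pf4 (platelet factor 4), which lacks the ELR motif, was at 4534 ± 1457 with DMSO and higher only with Apitolisib (log2 fold change 0.85). Of the receptors only Cxcr2 passed the filter, at 182 ± 54.0 with DMSO, while Cxcr1 and the decoy receptor Ackr1 had means of 0.19 and 0.03. Cxcr2, which is also 1 of the neutrophil markers, was called higher with Lapatinib (1.01), where those markers were above DMSO, and with no other CKI.

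**Figure D5:**
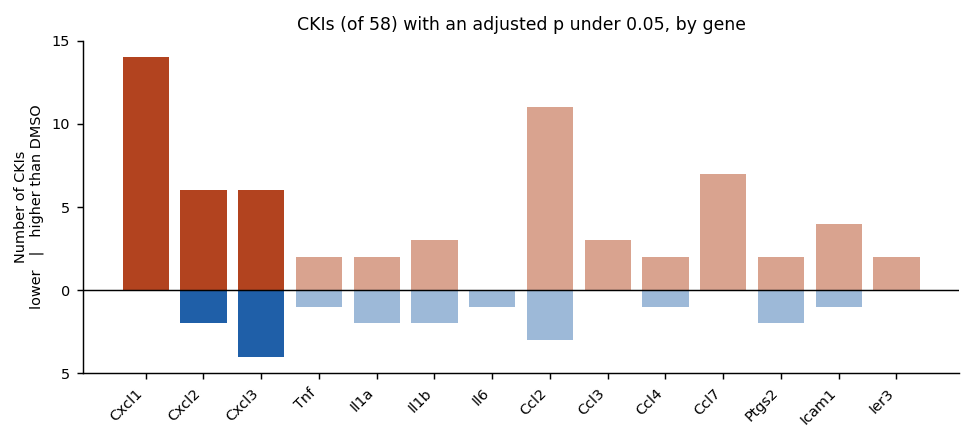
Number of CKIs, of 58, with an adjusted p under 0.05 for higher (bars up) or lower (bars down) values than DMSO, for the 3 chemokines (dark) and 11 early NF-kB targets (light). Cxcl1 is higher with 14 CKIs and lower with 0, while Il6 is lower with 1 and higher with 0.

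Early NF-kB targets other than the members are given for comparison. Of the 13 in the list 11 passed the filter. Ccl2, which attracts monocytes, was higher with 11 CKIs and lower with 3, and Ccl7, a related chemokine, was higher with 7 and lower with 0. Tnf was higher with 2 and lower with 1, Il1b was higher with 3 and lower with 2, and Il6 was lower with 1. The difference in the number of calls between genes was not tested, and it also depends on the spread of each gene, which was 829 for Tnf at a mean of 7751 and 161 for Il6 at a mean of 533 with DMSO (SD, n = 6).

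The list was called to a different extent with the CKIs named above. Of all genes 17.5% were called higher with Omipalisib, 24.1% with BGT226, 9.02% with Tofacitinib, 6.1% with Filgotinib and 2.63% with Midostaurin. With Pimasertib 5.68% were called lower. With Omipalisib 6 of 11 early NF-kB targets were higher and 0 lower, with a median log2 fold change of 1.04 against 0.12 over all genes. Among them were Ccl2 (1.90), Ccl3 (1.44) and Ptgs2 (1.28), the inducible cyclooxygenase. With BGT226 6 of 11 were higher and 2 lower (median 0.46 against 0.21), and those lower were Il1a (-1.09) and Il1b (-1.54), which encode forms of interleukin 1, with 6.32% of all genes called lower. With Tofacitinib 5 of 11 were higher, including Tnf (1.06) and Il1b (1.23), and 0 were lower (median 0.62 against 0.17). With Momelotinib 0 of 11 were called and the median was -0.05 against 0.11. That count is near the shares over all 12714 genes tested, with 0.378% called higher and 52 genes lower. All 3 chemokines were higher with Momelotinib. With Filgotinib 1 of 11 was called, Tnf (1.09). With Midostaurin 4 of 11 were lower, namely Ccl2 (-0.98), Ccl4 (-1.02), Il6 (-1.36) and Tnf (-0.99), and 1 was higher, Ier3 (0.87), while Cxcl1 and Cxcl3 were higher and 1.93% of all genes were called lower. With Pimasertib 2 of 11 were lower, Ccl2 (-0.75) and Ptgs2 (-1.28), and 0 were higher.

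NF-kB subunits and inhibitors, all 12 of which passed the filter, were called in both directions. With Pimasertib, where 5.68% of all genes were called lower, 6 of 12 were lower and 0 higher (median -0.34 against 0.12 over all genes). Among these were Nfkb2 (-0.74), a subunit precursor, and Nfkbia (-0.45), which encodes the inhibitor IkBa and is itself an NF-kB target. With Omipalisib, where 17.5% of all genes were called higher, 6 of 12 were higher and 0 lower (median 0.24). Among them were Nfkbia (0.23), Rela (0.19) and Rel (0.44). With Filgotinib 4 were lower and 1 higher, where 14.6% of all genes were called lower and 6.1% higher. With Tofacitinib 1 was higher, near the 9.02% of all genes. With Momelotinib and IMD0354 0 were called, where 0.378% and 0.102% of all genes were called higher and 52 and 34 genes lower. Nfkb2 was lower with 13 of 58 CKIs in all and Relb with 8.

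Of the 15 genes of TLR4 and MyD88 signalling, all of which passed the filter, 6 were higher and 1 lower with Omipalisib, where 17.5% of all genes were called higher and 8.16% lower. With Momelotinib and Midostaurin 0 of them were called, where 0.378% and 2.63% of all genes were called higher. Called lower were 52 genes with Momelotinib and 1.93% of all genes with Midostaurin. With Tofacitinib 1 was higher, against 9.02% of all genes, and with Filgotinib 4 were lower, against 14.6%. Myd88 itself was lower with 10 of 58 CKIs and higher with 0. With Pimasertib 5.68% of all genes were called lower. In the MAPK and AP-1 branch, of 16 genes 3 were lower with Pimasertib and 0 higher. These included Egr1 (-3.50), an immediate early gene downstream of ERK, and Junb (-0.86). With PH797804 Dusp1 (-2.01), the phosphatase that switches p38 off, and Junb (-0.94) were lower. Filgotinib had 6 of the 16 lower, Jun (-1.70) among them, and Atf3, a repressor of Toll-like receptor responses, was lower with Filgotinib (-0.87), Momelotinib (-0.99), Tofacitinib (-0.75) and Midostaurin (-1.81) but higher with Omipalisib (1.26) and BGT226 (2.03). In all, Atf3 was lower with 9 of 58 CKIs and higher with 2. A link between Atf3 and the chemokine levels was not tested.

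Regulators of mRNA decay and stability also moved with some of these CKIs. Of 8 such genes 3 were higher with Omipalisib, 3 with BGT226, 4 with Tofacitinib and 2 with Filgotinib, and 0 were lower with these. The shares of all genes called higher were 17.5%, 24.1%, 9.02% and 6.1% in the same order, so that 3 of 8 is near the share over all genes with BGT226. Zfp36l2, a relative of Zfp36, was higher with Omipalisib (3.05), BGT226 (3.79) and Filgotinib (1.24), from 18.8 ± 7.22 (SD, n = 6) with DMSO. Zfp36 itself was lower with PH797804 (-1.57), where Cxcl3 was lower too, and higher with BGT226 (0.67) and Filgotinib (0.66). Zc3h12a (Regnase-1), an RNase that cuts inflammatory mRNAs, was higher with Tofacitinib (0.55) and Midostaurin (0.78). The part of these genes in the chemokine levels was not tested.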

How the data were processed

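RNA of 180 BMDM samples (58 CKIs with 3 samples each, 6 with DMSO) was sequenced by the SMART-seq2 protocol. The labels name a NextSeq500, whereas the methods name paired-end reads from a NovaSeq and the mapping of single-end reads. The authors trimmed reads, mapped them to mm10 with TopHat2 2.1.1, kept 1 alignment for each read, removed blacklisted regions with bedtools 2.29.2 and counted reads on RefSeq exons, with no statement on strand. They scaled samples on invariant genes and deposited the values as whole numbers, which were used as a score with no fixed unit (normalized values). They tested them with DESeq2 without its normalization in R 3.6.2. Because of the scaling and rounding no count test was run, and the precision at a given depth comes from the spread between samples only.

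Here limma 3.58.1 in R 4.3.3 was fitted to log2(value + 1) of 59 groups with a variance trend, over the 12714 of 45070 genes with a mean of at least 10, and CKIs were compared with the 6 DMSO samples. The labels do not tie CKIs to a DMSO set. P-values were adjusted over genes within a CKI. The methods speak of independent biological replicates, while the labels name no animals, so p-values may measure technical spread. Ratios of log2(value + 1) were compared by exact permutation over 84 splits, adjusted over 174 tests. The scripts ran in Python 3.11.15 (SciPy 1.17.1, NumPy 2.4.6, matplotlib 3.10.9, pandas 2.3.3), and the fits were tested on simulated data.

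The members, the gene lists, the classes of CKIs and the tests were chosen with earlier results of these data known. Members are described in all conditions, with values by sample for DMSO and for each CKI where a member passed, or the 3 largest changes in a direction with fewer than 3 calls. Further names are the 5 genes with the highest Pearson's r for each member and genes of the lists. CKIs without a call were also named to complete a class. Promoters are RefSeq's and 3′UTRs were taken from GENCODE annotation of GRCm38.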

Additional observations from a re-analysis of the deposited data

How the results depend on the processing

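The counts of CKIs with a rise of Cxcl1 (14), of Cxcl2 (6) and of Cxcl3 (6) and with a fall of Cxcl1 (0), of Cxcl2 (2) and of Cxcl3 (4) were recomputed under each alternative. No alternative turned the direction of any of 36 named fold changes. Pseudocounts of 0.5 and 10 and a fit without the variance trend changed no count, and a filter at a mean of 50 changed no count by more than 1.5 times. Without a filter Cxcl3 rose with 3. With scaling by the median of ratios, which moved the median gene by -0.199 to 0.044, Cxcl2 fell with 4. With the first DMSO set alone Cxcl2 fell with 1, Cxcl3 rose with 3 and fell with 2, and with the second alone Cxcl2 fell with 1 and Cxcl3 with 1. With a log2 fold change of at least 1, Cxcl1 rose with 7, Cxcl2 with 2 and Cxcl3 with 2, and Cxcl2 and Cxcl3 fell with 1 each. With p-values adjusted over the 58 CKIs of each gene, a choice made after seeing the data, Cxcl1 rose with 23, Cxcl2 fell with 4 and Cxcl3 fell with 8, while Cxcl2 and Cxcl3 rose with 9 each. The cause of these shifts was not tested, other than that fewer samples or a higher limit leave fewer calls.

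Over the fits that left out replicates or DMSO samples, Cxcl1 rose with 11 to 14 CKIs, Cxcl2 rose with 3 to 6 and fell with 0 to 4, and Cxcl3 rose with 1 to 8 and fell with 1 to 5. Cxcl1 fell with 0 in each. Of the ratios 0 of 174 passed with a pseudocount of 10 or with splits within replicate numbers, where 27 splits allow no p under 0.0741.

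The replicate number as a block gave 4 CKIs with a fall of Cxcl2 and 7 with a fall of Cxcl3, and with the mitochondrial share as a further term also 7 for Cxcl3. The block ended no call. It added rises of Cxcl2 and Cxcl3 with IMD0354 (adjusted p = 0.0277 and 0.00201) and BMS911543 (0.0369 and 0.00229) and of Cxcl3 with PF04691502 (0.00121), falls of Cxcl2 with PH797804 (0.0221) and Refametinib (0.0263), and falls of Cxcl3 with Refametinib (0.0263), Losmapimod (0.049) and OSI930 (0.00483). The mitochondrial term ended the calls of Cxcl1 with Apitolisib (0.195) and Lapatinib (0.287), so that Cxcl1 rose with 12. Residuals of CKI samples correlated with those of the DMSO samples of the same number at 0.314 on average, and 126 of 174 were closest to their own number, a hint of a shared effect. The average with other numbers was -0.157. Residuals were deviations from group means, so this value largely follows from the first and adds little to it. Only 144 of 174 correlations were over 0.1 and the lowest was -0.523. The methods speak of independent biological replicates, but the labels name nothing that a number marks. The fit without the block was therefore kept, and the calls that the block added depend on this choice. Genes near the filter of 10, such as Ppbp, have large rounding and counting errors, so that small changes in them could not be seen at this depth.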
